A study of Mus musculus with 6 samples.

Results

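Described here are 41 autosomal imprinted genes of the mouse, taken from a list of symbols, in mesenchyme of the Müllerian duct, from which oviduct, uterus and upper vagina develop, and which is lost in male embryos under anti-Müllerian hormone (AMH) made by the testis. Of these symbols, 37 matched 1 of the 37991 gene identifiers in the count files. Rian, Mirg, Kcnq1ot1 and Snrpn had no matching identifier and were not analysed here. Of the 37, 34 passed the filter on low counts and were tested.

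Genomic imprinting leaves a gene active on the chromosome from one parent and silent on the other. Most imprinted genes lie in clusters that share a control region with parent-specific DNA methylation, and many act on fetal and placental growth: paternally expressed Igf2 promotes growth, and maternally expressed genes such as Igf2r, Grb10, Cdkn1c and Phlda2 restrain it.

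The data were gene counts from RNA sequencing of 3 female and 3 male libraries at embryonic day 14.5. All 6 came from embryos carrying Amhr2Cre/+ and R26R YFP/+ on a mixed C57BL/6J x 129/SvEv background, so the sexes share genotype and strain, and the labels name no treatment. The Cre was placed into the Amhr2 locus, the gene of the AMH receptor, so that embryos of both sexes keep 1 wild-type Amhr2 allele. The sort took YFP-positive cells, those with past or present activity of this Cre, and somatic cells of the gonad are also known to express Amhr2. Each library pooled cells of 2 to 7 embryos. The comparison asks what differs between duct mesenchyme that is regressing and duct mesenchyme that is not. Counts of this kind do not separate the parental alleles: the allele named for a gene below is the one known from the literature, and it was not measured.

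Libraries held 22511872 to 24749859 counts in genes. Values are CPM, counts scaled by library total with TMM normalization, and each fold change or ratio given on the log2 scale is male over female. The sex-linked genes went with the labels: Xist was at 278 CPM or more in female and 2.22 CPM or less in male libraries, and 6 Y-linked genes summed to 52 CPM or more in male and 0.441 CPM or less in female libraries. Duct mesenchyme markers were present: 9 listed genes summed to 2925 to 3892 CPM (female) and 4049 to 4353 CPM (male), and none of the 8 tested passed (edgeR; 3 were lower in male at an unadjusted p under 0.05, and DESeq2 called 1 lower). Of the 8, 5 had a log2 fold change below 0, with a median of −0.48, so most of the list did not follow the higher male sum. With the offset for GC content and length described next, Pdgfra was higher and Hoxa10, Hoxa11 and Amhr2 were lower in male. Amhr2, whose locus drives the Cre, was at 324 to 784 CPM (female) and 160.1 to 462 CPM (male), with −0.97 on the log2 scale with the offset (SE 0.18, edgeR adjusted p = 0.0256). Replicate 1 of each sex stood apart, with 17.5% and 18.2% of uniquely placed counts outside annotated genes against 3.53% to 8.65% in the other libraries. In bulk RNA, fewer cells of a type and less RNA per cell cannot be told apart.

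That difference between libraries went with GC content in the imprinted genes. These genes also differ in transcript length, and the part of length was not tested apart from that of GC content. Across the 34 tested genes, the log2 ratio of replicate 1 over replicate 2 had a Pearson correlation with transcript GC content of −0.70 in female and −0.75 in male libraries; these are genes measured in the same 4 libraries, so the values only describe them. Of the 15 genes with a GC content of 50% or more, 12 were lower in female replicate 1 than in female replicate 2, and 11 in the male pair. Among the other 19, 15 were higher in female replicate 1 and 17 in male replicate 1. The highest library of a sex exceeded the lowest by a median of 3.07-fold in female and 2.94-fold in male libraries for the tested imprinted genes, against 2.29-fold and 2.46-fold for all tested genes. An offset fitted to each library's trend on GC content and transcript length brought these medians to 1.6-fold and 1.70-fold for the imprinted genes, against 1.6-fold and 1.66-fold. It did not narrow every gene. Among female libraries Sgce spanned 28.9 to 44.1 CPM before and 18.5 to 86.4 after the offset, and Ndn 108 to 304 CPM before and 75.3 to 401 after. Results with that offset are given beside the others because they change calls.

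**Figure D1:**
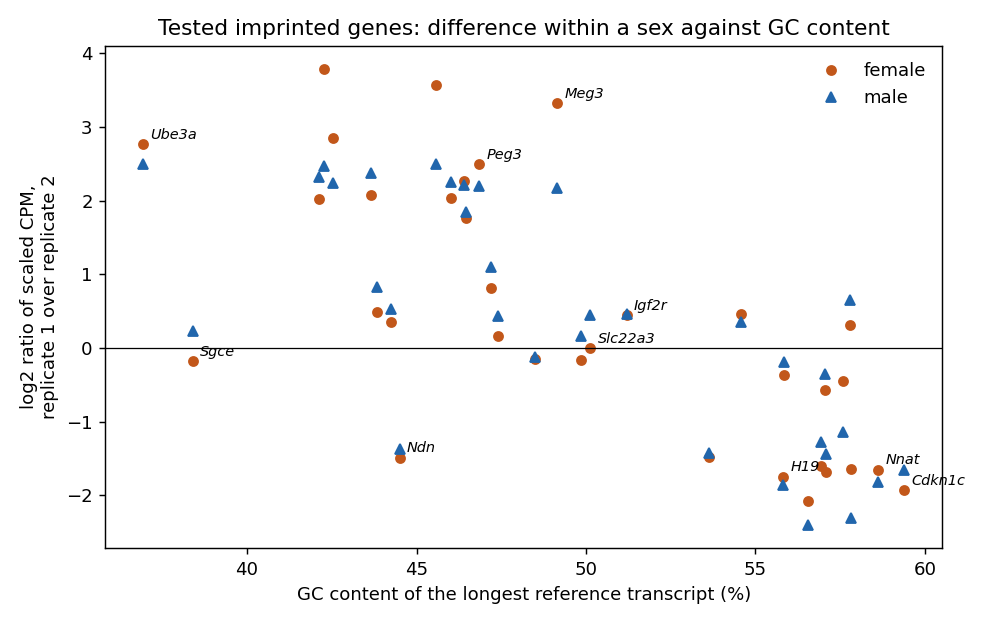
Each point is 1 of the 34 tested imprinted genes in 1 sex: the x axis is the GC content of its longest reference transcript in percent, and the y axis is the log2 ratio of scaled CPM in replicate 1 over replicate 2. Ube3a, Peg3 and Meg3 lie above 0 and H19, Nnat and Cdkn1c below it in both sexes, and Igf2r lies above 0.

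One imprinted gene, Slc22a3, was higher in male libraries past the threshold (edgeR quasi-likelihood test, adjusted p under 0.05 over all 15227 genes tested). Over all tested genes 0.841% were higher and 0.387% were lower in male by this rule, and a single call among 34 is no result about the list. At an unadjusted p under 0.05, 4 of the 34 were higher and 0 lower (Slc22a3, Igf2r, Phlda2 and Rtl1), against 9.18% of all genes in either direction, which is a similar share. DESeq2 called 2 of the 34, Slc22a3 and Igf2r, both higher in male and none lower, with 5.06% of all genes called in either direction. Male and female libraries did not overlap in 4 of the 34, namely Slc22a3, Igf2r, Rtl1 and Mkrn3, a share no larger than the 13.7% of all genes. The median log2 fold change was 0.31 over the tested imprinted genes and −0.01 over all tested genes. Without male replicate 1 these medians were −0.05 and −0.10, so the sign of the median over the imprinted genes turned with 1 library.

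**Figure D2:**
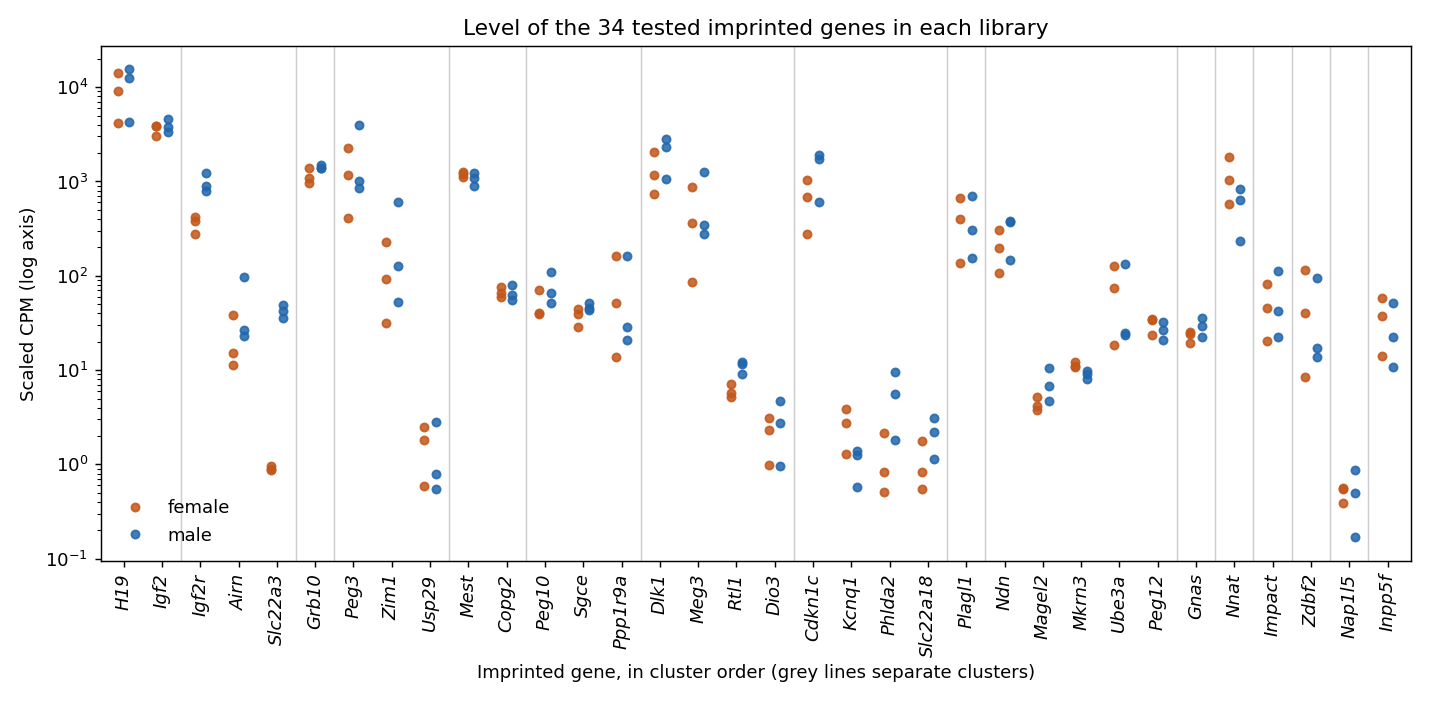
Scaled CPM of the 34 tested imprinted genes on a log axis, with 1 point per library, female and male side by side, in cluster order. In Slc22a3 every female library is below 1 CPM and every male library above 35 CPM, and in H19 and most other genes the sexes overlap.

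The Igf2r cluster held the largest difference. Igf2r encodes the receptor that binds IGF2 at the cell surface and delivers it to the lysosome, and also sorts enzymes that carry mannose 6-phosphate. Airn is a long RNA made from the paternal chromosome, antisense to Igf2r and across its start, and silences Igf2r there. Slc22a2 and Slc22a3 encode organic cation transporters, and both are known to be imprinted in the placenta rather than in the embryo; Slc22a3 takes up monoamines such as noradrenaline and dopamine.

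Slc22a3 stood at 0.882, 0.885 and 0.960 CPM in female replicates 1 to 3 and 48.8, 35.7 and 42.1 CPM in male replicates 1 to 3. It was close to 1 CPM in each female library and at least 35 CPM in each male library, with no overlap. The means were 0.909 ± 0.0444 CPM in females and 42.2 ± 6.55 CPM in males (SD, n = 3 each), 46.2-fold higher in male or 5.53 on the log2 scale (standard error, SE, 0.37, edgeR adjusted p = 0.00805). These values rest on 66 counts over the female and 3000 counts over the male libraries. Without female replicate 3 the adjusted p was 0.181 and without male replicate 3 it was 0.0911, although the log2 fold change stayed at 5.57 and 5.54; in both settings no gene of the whole table passed. Without the replicate 1 library of either sex Slc22a3 passed, at 5.51 (female replicate 1 left out) and 5.41 (male replicate 1 left out).

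Igf2r stood at 383, 281 and 418 CPM in female replicates 1 to 3 and 1243, 905 and 795 CPM in male replicates 1 to 3. Each male library was above each female library, with means of 360.4 ± 71.2 CPM in females and 981 ± 233 CPM in males (SD, n = 3 each). Its log2 fold change was 1.45 (SE 0.37) and did not pass (edgeR adjusted p = 0.162). After the GC and length offset the libraries lay at 308, 352 and 357 in female and 1020.1, 1026 and 989 in male replicates 1 to 3, in adjusted CPM, and the sexes differed by far more than the libraries of either sex. With that offset Igf2r was higher in male past the threshold, at 1.58 (SE 0.19, edgeR adjusted p = 0.00509), and DESeq2 called it as well (adjusted p = 0.00378).

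Airn stood at 38.4, 11.3 and 15 CPM in female replicates 1 to 3 and 96.3, 26.7 and 22.8 CPM in male replicates 1 to 3, with overlapping sexes and a log2 ratio of 1.17 (SE 0.74, edgeR adjusted p = 0.917). The library kit does not mark strand. Airn and Igf2r overlap on opposite strands but share no exon bases in the reference annotation. Unspliced Igf2r RNA on exons of Airn would thus be counted as Airn, and unspliced Airn RNA on exons of Igf2r as Igf2r. The part of such reads in either value was not tested. Slc22a3 shares 420 exon bases, 9.31% of its own, with Plg on the opposite strand, but Plg had 0 to 2 counts per library. Slc22a2 had too few counts to be tested, with 0, 0 and 1 in female and 8, 1 and 3 in male replicates 1 to 3, a count ratio of 12.4 (exact 95% interval 1.84 to 530.8, counting error only).

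The nearest tested gene outside the cluster, looked at after the values of the cluster were seen, did not pass on either side. Map3k4, a kinase gene beyond Slc22a3, had a log2 ratio of −0.33 (SE 0.31), and Pnldc1, an RNA nuclease gene beyond Airn, had 0.05 (SE 0.33).

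**Figure D3:**
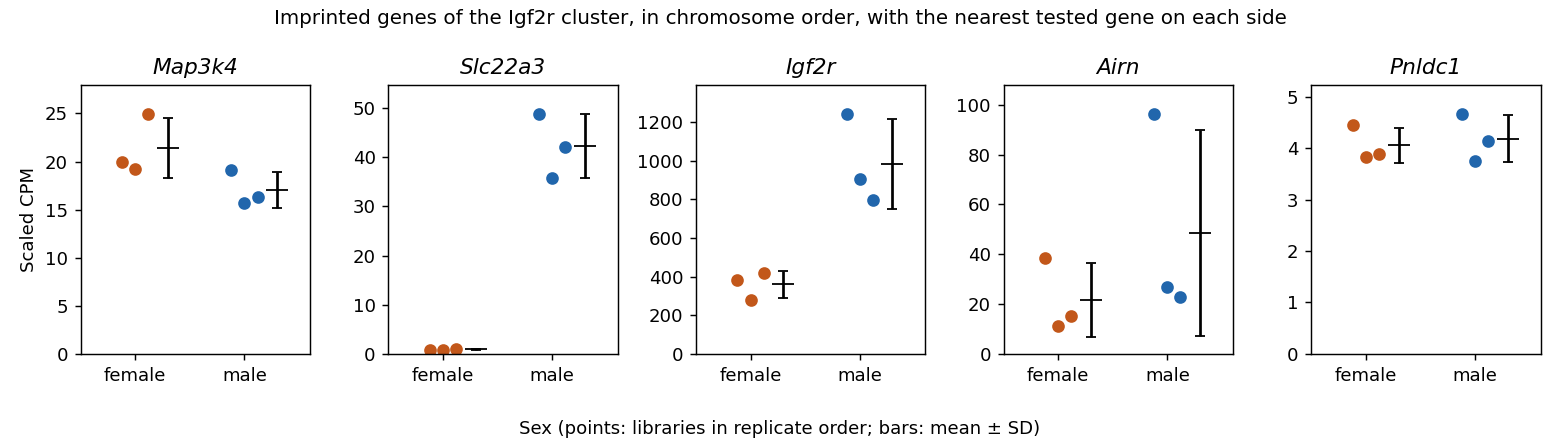
Scaled CPM per library of the imprinted genes Slc22a3, Igf2r and Airn between the outer genes Map3k4 and Pnldc1, in chromosome order, with points for the libraries and bars for the mean ± SD of each sex. The male libraries of Slc22a3 and Igf2r lie above all female libraries, the sexes overlap in Airn and Pnldc1, and the male libraries of Map3k4 lie just below the female ones.

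Markers of other cells also differed between the sexes. Of 9 Sertoli cell markers, typical of the fetal testis, 4 rose in male (Amh, Sox9, Cst9 and Gdnf), and 6 with the offset, and the summed level of the 9 was 22.2 to 31.3 CPM (female) and 88.1 to 143 CPM (male), none of the 9 being at 0 counts throughout. The endothelial list summed to 49 to 94.6 CPM (female) and 144 to 329 CPM (male), with none of 6 tested members past the threshold (edgeR; 1 higher at an unadjusted p under 0.05 and in DESeq2). With the offset 1 endothelial marker, Kdr, was higher in male (edgeR adjusted p = 0.0109). The endothelial sum follows Kdr, which alone was at 40.4 to 86.1 CPM (female) and 133 to 319 CPM (male). The neuronal and Schwann cell list summed to 15.7 to 30.1 CPM (female) and 67.6 to 77 CPM (male), with Stmn2 higher in male among 5, a call that was lost with the offset (edgeR adjusted p = 0.0561). The difference in this sum follows Stmn2, which alone was at 9.59 to 11.7 CPM (female) and 47.0 to 68.1 CPM (male). The Sertoli, endothelial and neuronal sums were higher in every male than in every female library. The same held for the sums of the duct mesenchyme list above and of the pregranulosa list below. Pregranulosa markers, typical of the fetal ovary, went mostly the other way. Of 7, 5 had a log2 fold change below 0, with a median of −1.10, and Irx5 was lower in male past the threshold. With the offset 3 were lower (Irx3, Irx5 and Foxl2) and 1 was higher (Wnt4), and DESeq2 also called 3 lower and 1 higher. The sum of this list, 111 to 209 CPM (female) and 275 to 553 CPM (male), follows Wnt4, which alone was at 74.4 to 151 CPM (female) and 256 to 531 CPM (male). Duct epithelium markers summed to 204 to 725 CPM (female) and 150.0 to 498 CPM (male), with Epcam lower among 7. In the mesothelial, fetal Leydig, erythroid and leukocyte lists no member passed (edgeR and DESeq2; 2 mesothelial members were lower at an unadjusted p under 0.05), and their sums were 588 to 801 CPM (female) and 516 to 622 CPM (male), 5.48 to 9.11 CPM (female) and 2.42 to 7.00 CPM (male), 4.96 to 30.3 CPM (female) and 4.59 to 9.84 CPM (male), and 4.87 to 9.29 CPM (female) and 6.24 to 10 CPM (male), in that order. The part of other cells in the values of Slc22a3, Igf2r, Phlda2 and Nnat was not tested.

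The reference starts of the 2 leading genes of the cluster differ in CpG content. A CpG is a C followed by a G on the same strand, and DNA methylation is placed on its C. They are shown because these genes lie in 1 cluster and were both higher in male libraries. Each is a 300-base RefSeq window (GRCm38.p6) around the annotated start, on the minus strand at chr17:12507655-12507954 for Slc22a3 and chr17:12769657-12769956 for Igf2r, printed 5′ to 3′ with each CG in capitals.
Slc22a3: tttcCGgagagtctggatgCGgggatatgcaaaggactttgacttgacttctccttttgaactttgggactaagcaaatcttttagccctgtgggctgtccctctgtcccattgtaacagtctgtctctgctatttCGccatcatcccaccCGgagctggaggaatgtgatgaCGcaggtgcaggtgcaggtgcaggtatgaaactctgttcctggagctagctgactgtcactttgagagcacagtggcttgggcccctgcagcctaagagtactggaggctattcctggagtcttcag
Igf2r: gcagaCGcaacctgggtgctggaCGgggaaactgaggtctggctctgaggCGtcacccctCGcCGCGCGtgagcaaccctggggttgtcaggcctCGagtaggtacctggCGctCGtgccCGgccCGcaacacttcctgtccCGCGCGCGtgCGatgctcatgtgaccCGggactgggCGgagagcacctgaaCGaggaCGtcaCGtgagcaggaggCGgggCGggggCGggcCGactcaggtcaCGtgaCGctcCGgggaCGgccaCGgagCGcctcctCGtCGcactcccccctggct
The Slc22a3 window holds 5 CG and the Igf2r window 34, where the median over all 32851 windows of the table is 7. Of the 41 listed genes 34 had a window in that table, 49 windows in all, with a median of 15 CG. The hexamer TGCCGC, which the zinc finger protein ZFP57 binds when methylated, was searched on both strands. It was found in 26.5% of the 49 windows and in 11.6% of all windows of that length, and in neither window printed above. The hexamer itself holds a CG, and the 49 windows are richer in CG (median 15 against 7), so these shares do not compare windows of like composition. Windows of 1 gene can also overlap, as in Mest. By known allele it was in 8 of 27 windows of paternally and 4 of 15 windows of maternally expressed genes. No methylation was measured in this series, and a match is only a run of letters.

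The other genes of the IGF2 axis are among the most abundant of the list. H19 is a maternally expressed long RNA that shares enhancers with paternally expressed Igf2, a fetal growth factor. Per kilobase of merged exon, H19 had the highest mean level at 4052 CPM per kb and Igf2 the next at 660.2. Cdkn1c (509), Nnat (466), Dlk1 (300.0) and Mest (288) followed, and Igf2r was at 72.1. Exon lengths come from the GRCm38 annotation and the counts from another, so these levels are approximate.

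H19 stood at 4207, 14092 and 9167 CPM in female replicates 1 to 3 and 4252, 15462 and 12628 CPM in male replicates 1 to 3. In both sexes replicate 1 was lowest, and the sexes overlapped, with a log2 ratio of 0.24 (SE 0.67). Igf2 stood at 3057, 3922 and 3922 CPM in female replicates 1 to 3 and 3347, 3800.5 and 4622 CPM in male replicates 1 to 3, again overlapping, with 0.11 (SE 0.38). Neither passed (edgeR adjusted p = 0.99997 for H19 and 0.99997 for Igf2). With the offset both had a log2 fold change within 0.05 of 0, with an SE of 0.31 for H19 and 0.23 for Igf2. Grb10, an adaptor that restrains insulin and IGF receptors, stood at 969.9 to 1403 CPM (female) and 1374 to 1496 CPM (male), with a log2 ratio of 0.30 (SE 0.34). Plagl1, a zinc finger factor that can activate Igf2 and H19, ranged over 138 to 666 CPM (female) and 153 to 709.6 CPM (male) and had −0.04 (SE 0.74). Neither Grb10 nor Plagl1 passed. Of 7 further genes, the receptors Igf1r and Insr, their adaptors Irs1 and Irs2 and 3 proteins that bind Igf2 RNA, none passed in either direction in edgeR, with or without the offset, or in DESeq2, and none had an unadjusted p under 0.05. All 7 had a log2 fold change below 0, with a median of −0.42, and the one with the smallest p, Irs2, had −0.57 (SE 0.32).

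The Kcnq1ot1 cluster holds maternally expressed genes that restrain growth. Cdkn1c encodes p57, an inhibitor of cyclin-dependent kinases, and stood at 275, 1047 and 686 CPM in female replicates 1 to 3 and 601, 1900.2 and 1717 CPM in male replicates 1 to 3. In each sex replicate 1 was lowest, and male replicate 1 lay below female replicates 2 and 3. The log2 fold change was 1.07 (SE 0.65) and did not pass (edgeR adjusted p = 0.892). With the offset the adjusted values were 481, 714 and 772 in female and 976, 1156 and 1294 in male replicates 1 to 3, which no longer overlap, at 0.80 (SE 0.26, edgeR adjusted p = 0.148), again without passing. Cell cycle genes, for comparison, had log2 fold changes below 0 in 18 of 18 tested members of a list, with a median of −0.68 and summed levels of 2833 to 3247 CPM (female) and 1701 to 1959 CPM (male); none passed (edgeR; 3 were lower at an unadjusted p under 0.05, and DESeq2 called 1 lower). With the offset 2 of the 18, Rrm2 and Ccna2, were lower in male. The part of cell cycle activity in the Cdkn1c values was not tested.

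Phlda2, which limits growth of the placenta, stood at 0.514, 2.16 and 0.840 CPM in female replicates 1 to 3 and 1.80, 9.54 and 5.56 CPM in male replicates 1 to 3. Male replicates 2 and 3 were above all female libraries and male replicate 1 was not. Its log2 fold change of 2.27 (SE 0.79) did not pass (edgeR adjusted p = 0.375), and with the offset it was 1.89 (SE 0.41) and passed (edgeR adjusted p = 0.0451). Slc22a18, a transporter gene between Cdkn1c and Phlda2, had 1.04 (SE 0.60) at 0.551 to 1.77 CPM (female) and 1.15 to 3.11 CPM (male), and did not pass in either fit. Kcnq1, a potassium channel gene, had the opposite sign, at 1.29, 3.88 and 2.72 CPM in female replicates 1 to 3 and 0.574, 1.38 and 1.26 CPM in male replicates 1 to 3. Only female replicate 1 lay below the highest male library. The log2 fold change of Kcnq1 was −1.29 (SE 0.57, edgeR adjusted p = 0.595), and with the offset it was lower in male past the threshold, at −1.45 (SE 0.32, edgeR adjusted p = 0.0471). Kcnq1 overlaps the antisense RNA Kcnq1ot1 over 121 exon bases, which these counts cannot assign to a strand. Ascl2, a transcription factor gene of the placenta, had 4 to 18 counts per library and was not tested.

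With the offset, 3 of the 34 tested imprinted genes were higher in male (Slc22a3, Igf2r and Phlda2) and 2 lower (Kcnq1 and Nnat), by edgeR's adjusted p. Over all genes 3.02% were higher and 2.92% lower in that fit, and counts this small are no result about the list. Cdkn1c, Peg10, Rtl1, Slc22a18, Magel2, Mest and Mkrn3 also had adjusted values that did not overlap between the sexes, and none of these 7 passed. In all, 12 of the 34 did not overlap in adjusted values, against 22.8% of all genes, and the difference between these shares was not tested.

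Nnat encodes neuronatin, a small membrane protein of the endoplasmic reticulum, is paternally expressed and lies inside an intron of Blcap on the opposite strand. It stood at 575, 1808 and 1029 CPM in female replicates 1 to 3 and 235, 832 and 634 CPM in male replicates 1 to 3. Within each replicate number the male value was the lower one, yet the sexes overlapped, and the log2 fold change of −1.004 (SE 0.62) did not pass (edgeR adjusted p = 0.91). With the offset the libraries lay at 1011, 1229 and 1204 in female and 376, 494 and 478 in male replicates 1 to 3, and Nnat was lower in male, at −1.35 (SE 0.22, edgeR adjusted p = 0.0146). Blcap, its host gene, was at 53.4 to 98.6 CPM (female) and 55.7 to 95.9 CPM (male), with 0.08 (SE 0.38). The Nnat start window, chr2:157559828-157560127 on the plus strand of GRCm38.p6, is shown because it holds the ZFP57 hexamer on its other strand, which includes 1 of its 17 CG (capitals mark each CG).
Nnat: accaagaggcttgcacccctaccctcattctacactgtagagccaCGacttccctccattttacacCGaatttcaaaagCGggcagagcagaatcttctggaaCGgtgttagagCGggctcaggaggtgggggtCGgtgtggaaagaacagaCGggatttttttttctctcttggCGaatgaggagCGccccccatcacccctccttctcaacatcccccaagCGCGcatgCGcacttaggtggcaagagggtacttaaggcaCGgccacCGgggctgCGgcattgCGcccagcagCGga

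**Figure D4:**
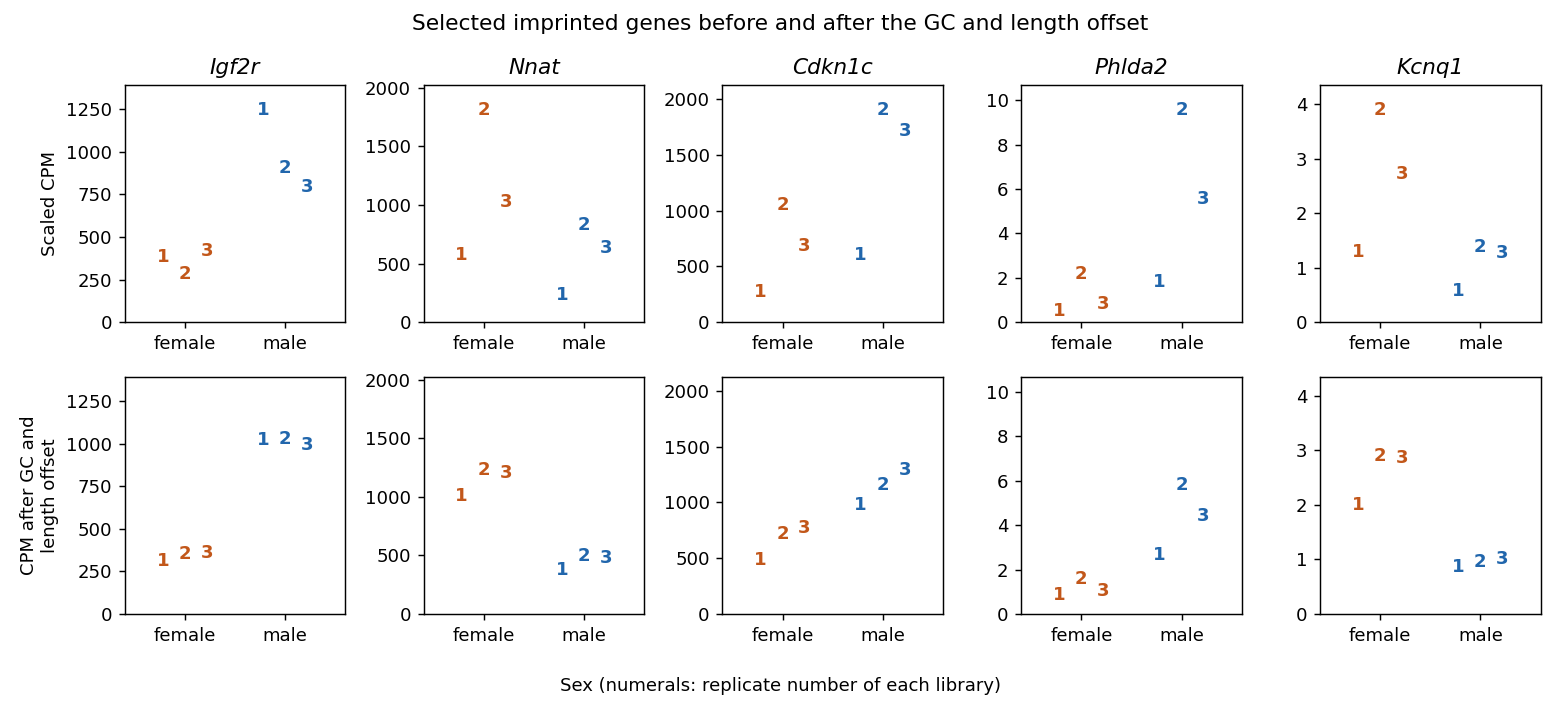
Scaled CPM (upper row) and CPM after the GC and length offset (lower row) of Igf2r, Nnat, Cdkn1c, Phlda2 and Kcnq1, with each library drawn as its replicate number. In the lower row the sexes separate in all 5 genes, with Igf2r at 989 to 1026 in male and at most 357 in female libraries. Genes whose libraries the offset spread further apart, such as Sgce and Ndn, are not drawn.

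In the Dlk1-Meg3 cluster, Dlk1 encodes a membrane protein of the Delta-Notch family that keeps cells from differentiating, and Meg3 is a maternally expressed long RNA. Dlk1 stood at 737, 2047 and 1182 CPM in female replicates 1 to 3 and 1065, 2853 and 2299 CPM in male replicates 1 to 3, and the sexes overlapped, with a log2 ratio of 0.65 (SE 0.56, edgeR adjusted p = 0.99997). Meg3 varied about 10-fold among female libraries, at 87 to 872 CPM (female) and 277 to 1249 CPM (male). Its log2 fold change was 0.51 (SE 0.92) and became −0.50 without male replicate 1. In both sexes replicate 1 was the lowest library for Dlk1 and the highest for Meg3. Rtl1, a gene derived from a retrotransposon that is needed in placental capillaries, stood at 7.09, 5.16 and 5.76 CPM in female replicates 1 to 3 and 11.6, 9.05 and 12.2 CPM in male replicates 1 to 3. Its male libraries were all above its female libraries, with 0.86 (SE 0.33, edgeR adjusted p = 0.46). MicroRNA genes lie on the opposite strand within Rtl1, and their precursor's reads cannot be told apart from those of Rtl1. Dio3, which inactivates thyroid hormone, was at 0.992 to 3.10 CPM (female) and 0.956 to 4.75 CPM (male) with 0.40 (SE 0.69).

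In the Peg3 cluster, Peg3, a zinc finger gene, stood at 2288, 406 and 1171 CPM in female replicates 1 to 3 and 3969, 859.9 and 1002 CPM in male replicates 1 to 3. Replicate 1 was highest and replicate 2 lowest in both sexes, and Peg3 had a log2 ratio of 0.59 (SE 0.84). Zim1, its maternally expressed zinc finger neighbour, was at 31.9 to 229.9 CPM (female) and 53 to 604 CPM (male), with 1.14 (SE 1.04). Without male replicate 1 both signs turned, to −0.47 for Peg3 and −0.40 for Zim1. Usp29, a ubiquitin protease gene read outward from near the Peg3 start, was at 0.590 to 2.50 CPM (female) and 0.544 to 2.83 CPM (male), with −0.23 (SE 0.79). None of the 3 passed, with or without the offset.

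Mest, an enzyme of the hydrolase fold typical of fetal mesoderm, stood at 1264, 1126 and 1209.9 CPM in female replicates 1 to 3 and 1221, 899 and 1086 CPM in male replicates 1 to 3. The sexes overlapped, with a log2 ratio of −0.17 (SE 0.33, edgeR adjusted p = 0.99997). Copg2, a coatomer subunit gene whose 3′ end overlaps Mest over 912 exon bases, was at 59.2 to 75.4 CPM (female) and 55.7 to 80.2 CPM (male), with −0.01 (SE 0.31). In the Peg10 cluster, Peg10, derived from a retrotransposon, had 0.60 (SE 0.43) at 39.2 to 70.6 CPM (female) and 51.1 to 110.0 CPM (male). Sgce, a sarcoglycan gene, had 0.32 (SE 0.31), and Ppp1r9a, which encodes the actin-binding neurabin, had −0.11 (SE 1.08). Ppp1r9a varied 11.9-fold among female and 7.78-fold among male libraries. None of these 5 passed in either fit.

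The genes of the Snrpn cluster, which in humans is tied to Prader-Willi and Angelman syndromes, did not pass either. Ndn, a MAGE-family growth suppressor, stood at 108, 304 and 199 CPM in female replicates 1 to 3 and 146, 379 and 372 CPM in male replicates 1 to 3, with 0.55 (SE 0.54). Magel2, a second MAGE gene, had 0.73 (SE 0.41) at 3.82 to 5.21 CPM (female) and 4.74 to 10.4 CPM (male). Mkrn3, a ubiquitin ligase gene, was at 10.8 to 12 CPM (female) and 8.06 to 9.78 CPM (male), so that all male libraries were below all female libraries, with −0.33 (SE 0.30, edgeR adjusted p = 0.99997). Peg12, related to the GSK3-binding FRAT proteins, had −0.20 (SE 0.34). Ube3a, the ubiquitin ligase gene that is maternally expressed in neurons, ranged over 18.5 to 126 CPM (female) and 23.4 to 132 CPM (male), with −0.28 (SE 0.92). Snrpn itself had no identifier in the files, and the locus Gm38393, which shares 589 exon bases with it on the same strand, was at 18.9 to 27.8 CPM (female) and 21.1 to 29.4 CPM (male), with 0.23 (SE 0.33).

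Of the imprinted genes outside these clusters, none passed except Nnat with the offset. Gnas, whose transcripts differ in their expressed allele and include the stimulatory G protein subunit, was at 19.6 to 25.1 CPM (female) and 22.7 to 35.7 CPM (male), with 0.35 (SE 0.33). Gnas shares 2 stretches of exon, of 988 and 1469 bases, with genes on the opposite strand, so its count is uncertain. Impact, a regulator of translation under amino acid shortage, had 0.25 (SE 0.73), and Zdbf2, a zinc finger gene, had −0.39 (SE 1.08) with a 13.9-fold range among female libraries. Inpp5f, a phosphoinositide phosphatase gene, had −0.36 (SE 0.71). Nap1l5, related to nucleosome assembly proteins, was below 1 CPM in every library, and Rasgrf1, a Ras exchange factor gene, had 0 to 10 counts per library and was not tested.

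By the allele known from the literature, in whichever tissue it was reported, 12 tested genes are grouped as maternally and 19 as paternally expressed. Another 3 are grouped as dependent on isoform or tissue. The 12 include Slc22a3 and Ube3a, whose imprinting is given above for placenta and for neurons. Whether they are imprinted in this mesenchyme was not measured. The median log2 fold change was 0.77 over the maternally expressed genes, with 8 above 0 and 4 below. Over the paternally expressed genes it was 0.25, with 12 above 0 and 7 below. With the offset 4 of the 12 maternally expressed genes passed, 3 higher and 1 lower in male, and 1 of the 19 paternally expressed genes, which was lower. Over all genes 3.02% were higher and 2.92% lower in that fit, and counts this small are no result about either group. Of the 4, 2 lie in the Igf2r cluster and 2 in the Kcnq1ot1 cluster. Genes of 1 cluster share control regions and libraries, so they are not independent, and the difference between the groups was not tested.

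**Figure D5:**
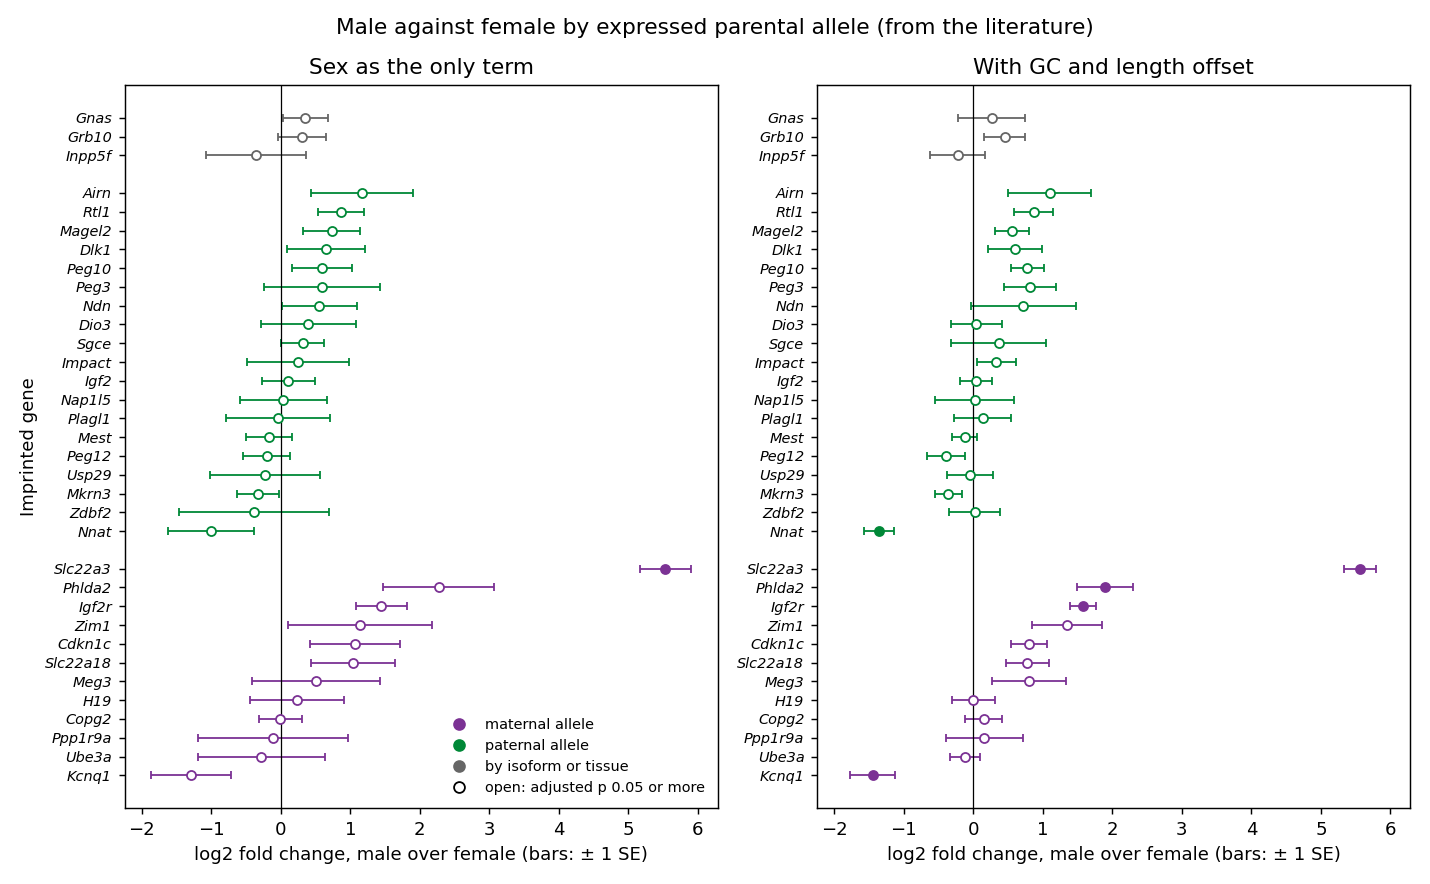
Log2 fold change, male over female, of the 34 tested imprinted genes with bars of 1 SE, by known expressed allele, with sex as the only term (left) and with the GC and length offset (right). Filled points have an edgeR adjusted p under 0.05: Slc22a3 on the left, and Slc22a3, Igf2r, Phlda2, Kcnq1 and Nnat on the right.

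Genes that set or keep imprints were read as a list: DNA methyltransferases, the TET enzymes that oxidise methylated DNA, the zinc finger proteins that guard methylated control regions, CTCF and other chromatin factors. Of 19 listed, 17 were tested and none passed in either direction (edgeR), with a median log2 fold change of −0.21. At an unadjusted p under 0.05 there was 1, lower in male, and DESeq2 called none. That gene, Uhrf1, which brings DNMT1 to newly copied DNA, was at 175 to 379.9 CPM (female) and 74.6 to 170.1 CPM (male) with −1.15 (SE 0.46). It was lower in male with the offset (edgeR adjusted p = 0.0274). Of 32 further genes reported as imprinted in mouse, mostly neighbours of these clusters, 25 were tested, 1 rose and none fell (edgeR; 1 was lower at an unadjusted p under 0.05 and in DESeq2). Ddc, the decarboxylase gene beside Grb10, rose from 3.19 ± 0.377 to 14.1 ± 2.42 CPM (SD, n = 3 each), with 2.14 (SE 0.34, edgeR adjusted p = 0.0407). Atp10a, a lipid flippase gene beside the Snrpn cluster, was at 21.9 to 38.1 CPM (female) and 7.76 to 8.30 CPM (male). It missed the threshold, with −1.83 (SE 0.35, edgeR adjusted p = 0.0666), and passed with the offset, lower in male. Over all 17 clusters, 33 nearest tested genes outside the span of the listed members included 1 higher in male, Ddc, and 0 lower (edgeR; at an unadjusted p under 0.05, 2 higher and 1 lower). Some of these 33, Ddc and Atp10a among them, are also on the list of 32 further imprinted genes. The flanking genes are thus not a set free of imprinting, and the 2 counts share genes. With the offset, and in DESeq2, 2 were higher, Ddc and Chrna7, and 1 lower, Atp10a. Chrna7, a nicotinic receptor gene on the other side of the Snrpn cluster, stood at 3.12, 0.885 and 1.80 CPM in female replicates 1 to 3 and 31.9, 9.74 and 5.81 CPM in male replicates 1 to 3, with no overlap and a log2 ratio of 3.02 (SE 0.81, edgeR adjusted p = 0.188, and 0.0219 with the offset).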

How the data were processed

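RNA of YFP-sorted cells was made into TruSeq v2 libraries and read as paired 76-base reads, per the labels' protocols. What the authors deposited is 1 table of raw gene counts for each library, by Ensembl identifier. The submitters' processing notes list TopHat, HTSeq and DESeq as tools and mm9 as build, with no versions or order. Annotation release and strandedness of counting: not given in the sources used here. Lines that name no gene were left out: counts outside genes were 3.53% to 18.2%, and counts on more than 1 gene 6.51% to 10.0%, of uniquely placed counts.

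Of 37991 identifiers 32919 had a symbol. Annotation (GENCODE, GRCm38) gave names, exon lengths, overlaps and gene order, and RefSeq tables of GRCm38.p6 gave start windows. In R 4.3.3, filterByExpr selected genes, TMM set the scaling, and a robust quasi-likelihood test of sex, with no other term, was run in edgeR 4.0.16 (both directions, Benjamini-Hochberg over all genes, threshold 0.05). A standard error is the size of the log2 fold change divided by the root of its F statistic. Counts of 1 to 3 in a sex are given as ratios with exact 95% intervals. Alternatives were RLE scaling, other filters, DESeq2 1.42.0, limma-voom (limma 3.58.1), a replicate block, an offset from splines (5 degrees of freedom) on GC content and length, fitted to the 96.4% of tested genes with a value, a threshold of 0.10 and leaving out each library. The edgeR and DESeq2 fits with sex as the only term were also run on simulated counts. Those counts held no library trend on GC content or length, and the offset fit was not run on them.

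The members, lists and alternatives were chosen with earlier results of these data known; the flanking genes were added after their values were seen. Full values are given for members past the threshold, for those with no overlap and an absolute log2 fold change of at least 1, and for the 6 with the highest level per kilobase; values of Airn, Phlda2, Kcnq1, Rtl1, Peg3 and Ndn per library were added after they were seen. Of other lists, members past the threshold or the one with the smallest p are named; Amhr2, Blcap, Atp10a, Chrna7, Gm38393 and markers called with the offset were also named after their values were seen. The labels call replicates biological and pool embryos; p-values measure the spread between these libraries. Replicate numbers were checked for pairing by the correlation of deviations from the sex means, which was 0.93, 0.85 and −0.07 for numbers 1 to 3. The highest correlation across unlike numbers was 0.59, for female replicate 2 and male replicate 3. Deviations within a sex cancel out, so these correlations are not independent. The numbers were not treated as pairs.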

Additional observations from a re-analysis of the deposited data

How the results depend on the processing

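Slc22a3 passed in 12 of 14 alternatives and Igf2r in 4 of 14, both higher in male in all of them. The number of imprinted genes called by edgeR was 1 with RLE scaling, without a filter, with a filter of CPM over 1 and at a threshold of 0.10, where the number over all genes was 184, 224, 193 and 386. The separate test limma-voom also called 1 (241 of all genes). DESeq2 called 2 of the imprinted genes (771 of all genes), and the GC and length offset 5 (905). Leaving out 1 library gave 0 to 1 imprinted genes and 0 to 173 of all genes; 0 genes were called without female replicate 3 or male replicate 3. A fit with the replicate number as a block called 15 of the 34 imprinted genes, 13 higher and 2 lower in male. Over all 15227 tested genes it called 4164, 1997 higher and 2167 lower. The block with the offset called 16 imprinted genes, 13 higher and 3 lower, and 4418 of all genes, 2069 higher and 2349 lower. The difference between these shares was not tested. By the correlations given above, the numbers do not mark 3 clear pairs of libraries, and no source says what the numbers share.

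Of the 34 tested imprinted genes, 19 kept their sign in every alternative and 15 did not. The log2 fold change turned to −0.0011 for H19 with the offset and −0.0091 with the offset and block. It turned for Copg2 (0.013 with RLE and with DESeq2, 0.15 with the offset, with or without block), Ppp1r9a (0.16, and 0.19 with block), Plagl1 (0.13 and 0.15) and Zdbf2 (0.017 and 0.027), and for Nap1l5 (−0.21 with limma-voom, −0.064 with block, −0.028 with offset and block). Leaving out 1 library turned the sign of 15 genes, with ranges for H19 (−0.12 to 0.70), Igf2 (−0.0062 to 0.21), Peg3 (−0.47 to 1.30), Zim1 (−0.40 to 2.06), Usp29 (−1.27 to 0.22), Copg2 (−0.17 to 0.10), Ppp1r9a (−1.62 to 1.13), Meg3 (−0.50 to 1.49), Dio3 (−0.21 to 0.81), Plagl1 (−0.80 to 0.54), Ube3a (−1.60 to 0.37), Impact (−0.63 to 0.84), Zdbf2 (−1.82 to 0.79), Nap1l5 (−0.61 to 0.45) and Inpp5f (−1.12 to 0.15). The cause was not tested. Nap1l5 had no value under the CPM filter.

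The precision is set by 3 libraries a sex and their spread: standard errors on the log2 scale ran from 0.30 to 1.08 over the tested imprinted genes, so a 2-fold difference lay within 2 standard errors for genes such as Peg3, Meg3 and Zdbf2. Slc22a2, Ascl2 and Rasgrf1 had too few counts for a test.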
